A study of Homo sapiens with 6 samples.

Results

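The globin genes are described here as a set of 10 genes, HBA1, HBA2, HBZ, HBM and HBQ1 of the alpha cluster and HBB, HBD, HBE1, HBG1 and HBG2 of the beta cluster. They were taken by symbol from a table of 35410 genes, and each of the 10 symbols was found there. RNA was sequenced at the 3′ end of polyadenylated transcripts (MACE-Seq) in 6 libraries of SEM, a human line of proB acute lymphoblastic leukemia cells that carries KMT2A::AFF1. SEM::mock carried an empty vector and SEM::EGR3 a doxycycline-inducible EGR3, the gene of an early growth response zinc finger factor, with 3 biological replicates each. Cells of both lines received doxycycline at 1 µg/mL for 48 h, so the groups differ by label in the transgene and not in the drug. How each line was derived, and whether it is clonal, was not given in the sources used here. The names SEM::mock and SEM::EGR3 stand below for libraries that carry these labels.

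Hemoglobin is built from alpha-type and beta-type globin chains around heme, and each type has its own gene cluster. Within a cluster the genes lie in the order in which they are used in development, from embryonic through fetal to adult, and the exchange of one gene for the next is known as globin switching. HBZ (zeta) and HBE1 (epsilon) are the embryonic genes, HBG1 and HBG2 (gamma) the fetal genes, HBA1 and HBA2 (alpha) serve from the fetus onwards, and HBB (beta) and HBD (delta) are the adult beta-type genes. HBM (mu) and HBQ1 (theta) are transcribed in erythroid cells but are not known to give a chain of hemoglobin. Globins are characteristic of red cell precursors and are not markers of the B lineage.

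In GRCh38 (GENCODE 29) the alpha cluster lies on the forward strand of chromosome 16, with HBZ at chr16:152687-154503, HBM at chr16:153892-166768, HBA2 at chr16:172876-173710, HBA1 at chr16:176680-177522 and HBQ1 at chr16:180453-181181. The beta cluster lies on the reverse strand of chromosome 11, with HBB at chr11:5225464-5229395, HBD at chr11:5232678-5243657, HBG1 at chr11:5248079-5249859, HBG2 at chr11:5253190-5505605 and HBE1 at chr11:5268345-5505652. The long spans of HBG2 and HBE1 come from annotated transcripts with a distant first exon.

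RefSeq promoter sequences (GRCh38.p14, 250 bases before to 50 after the start) matched 2 of the 10 members, HBD and HBM, the genes with the largest fitted decrease and increase among the members. They are shown because no other member had a match, and their directions between the lines played no part in the choice. Capitals mark matches, on either strand, to the TATA element TATAAA and its variant ATAAAA, the CCAAT box CCAAT, the KLF-type sequence CACCC, the GATA-type sequence GATAAG and its variant GATAAC, the direct repeat sequence TGACCA, and the EGR-type sequences GCGTGGGCG or GCGGGGGCG or the shorter GTGGGNG. GCGTGGGCG contains a match to GTGGGNG, and TATAAA can overlap ATAAAA. HBD lies at chr11:5234434-5234733 on the reverse strand and HBM at chr16:165728-166027 on the forward strand.
HBD promoter: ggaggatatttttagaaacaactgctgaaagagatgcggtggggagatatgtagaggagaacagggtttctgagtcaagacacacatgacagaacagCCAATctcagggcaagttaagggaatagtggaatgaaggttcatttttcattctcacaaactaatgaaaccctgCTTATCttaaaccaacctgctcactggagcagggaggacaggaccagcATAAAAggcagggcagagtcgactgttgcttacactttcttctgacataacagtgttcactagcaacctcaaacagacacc
HBM promoter: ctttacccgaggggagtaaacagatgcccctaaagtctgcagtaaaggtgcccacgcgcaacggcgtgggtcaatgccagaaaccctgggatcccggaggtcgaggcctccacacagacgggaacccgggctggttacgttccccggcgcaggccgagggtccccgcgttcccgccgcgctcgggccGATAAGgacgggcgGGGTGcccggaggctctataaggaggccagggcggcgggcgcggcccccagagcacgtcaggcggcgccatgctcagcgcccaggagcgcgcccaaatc

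The GATA-type motif GATAAG, the recognition sequence of GATA factors, occurred in both windows and in 6.36% of all 35116 promoters of the same length. The HBD window also held ATAAAA, which resembles the TATA element and was found in 16.0% of promoters, and CCAAT, found in 34.6%. The HBM window also held CACCC, a sequence bound by KLF factors, as did 59.9% of promoters, and its GC content was 69.3% against 44.7% in the HBD window. TATAAA was found in 11.5% of promoters, GATAAC in 4.49% and TGACCA in 10.7%, and in neither window shown. The EGR-type motifs GCGTGGGCG (0.795% of promoters), GCGGGGGCG (5.07%) and GTGGGNG (33.9%) had no match in these windows either. A match is a description of letters and not of a bound site.

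SEM::mock libraries held from 5286115 to 6181388 reads in listed genes, and SEM::EGR3 libraries from 7293092 to 15106018. Levels are given as CPM, the reads of a gene per 1000000 reads of the TMM-scaled library size, and since MACE-Seq reads transcript ends they were not divided by length. EGR3 had 8, 10 and 6 reads in the SEM::mock libraries and 9768, 4952 and 5557 in the SEM::EGR3 libraries, so the transgene followed the labels. The labelled cell type was then checked against its markers, which did not match it in SEM::mock. Of 10 B lineage markers, 8 had at most 3 reads in each SEM::mock library, among them PAX5, EBF1, CD79A and CD22. Some of the 8 were rare in SEM::EGR3 too, with DNTT at 2, 0 and 1 reads, MS4A1 at 6, 2 and 9 and VPREB1 at 8, 6 and 5. The same list summed to between 1.76 and 4.49 CPM in SEM::mock and to between 493 and 520 CPM in SEM::EGR3. Against the floor of 3 reads per library, PAX5 was at least 376-fold and EBF1 at least 237-fold higher in SEM::EGR3. All 4 genes known as targets of KMT2A fusions that were chosen after the values were seen were lower in SEM::mock, as were 36.5% of all tested genes. Since they were picked by their values, their count is no test of the cell type. HOXA7 had 0 reads throughout SEM::mock, while its level among the SEM::EGR3 libraries was 99.1 ± 5.25 CPM (SD, n = 3). HOXA9 had 1, 2 and 3 reads in the SEM::mock libraries. HOXA10 and MEIS1 were detected there, with 77, 74 and 75 reads for HOXA10 and 53, 48 and 38 for MEIS1. Erythroid markers were present in both lines, with 17 genes summing to between 1630 and 1720 CPM in SEM::mock and to between 1030 and 1050 CPM in SEM::EGR3. The difference in marker content coincides with the labels in all 6 libraries, so it and the transgene cannot be told apart as sources of any difference below. Likewise, fewer cells of a type and less RNA per cell cannot be told apart in bulk libraries.

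**Figure D1:**
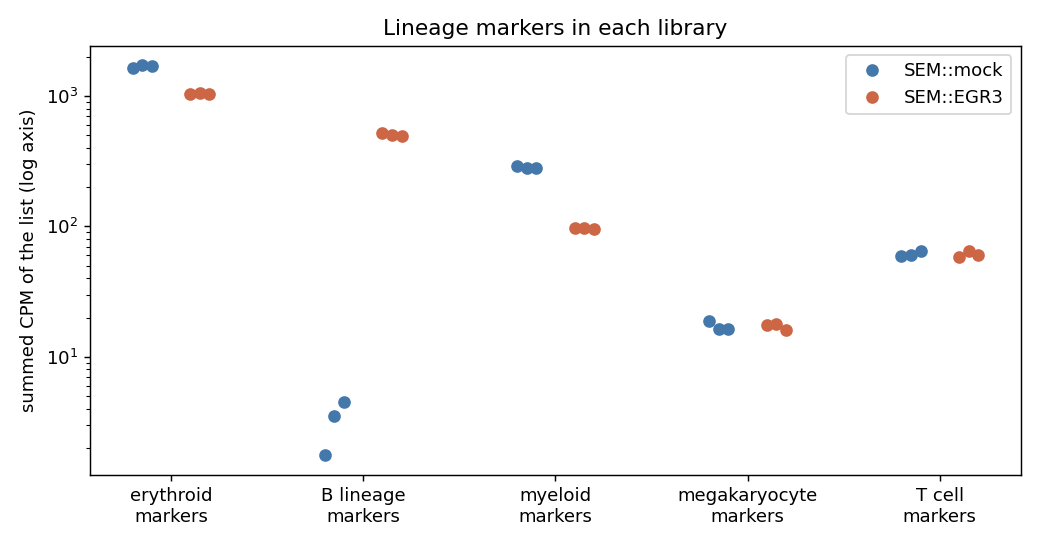
Summed CPM of the lineage marker lists (log axis) in each of the 6 libraries, with 1 point per library. The B lineage list lies between 1.76 and 4.49 CPM in SEM::mock and between 493 and 520 CPM in SEM::EGR3, whereas the erythroid list lies above 1000 CPM in all libraries.

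The alpha-type genes HBA1, HBA2 and HBZ had higher levels in SEM::EGR3, and the fetal genes HBG1 and HBG2 had lower levels there, compared with SEM::mock. HBB and HBE1 were at the detection limit in both lines. All 8 members that passed the filter on low counts passed the test (edgeR, adjusted p-value under 0.05), 4 as higher and 4 as lower. Among the 15465 genes tested, 68.5% passed, 36.5% as higher and 32.0% as lower, so passing by itself does not set the members apart. With a log2 fold change of at least 1 in addition, 4 of 8 members were higher against 16.7% of genes, and 3 of 8 were lower against 8.50%. The libraries of the lines did not overlap for any of these 8 members, which held for 70.1% of tested genes. HBM passed the filter only through SEM::EGR3, where it was higher, and therefore had to differ. HBD passed it only through SEM::mock, where it was higher, which favored its call as lower.

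**Figure D2:**
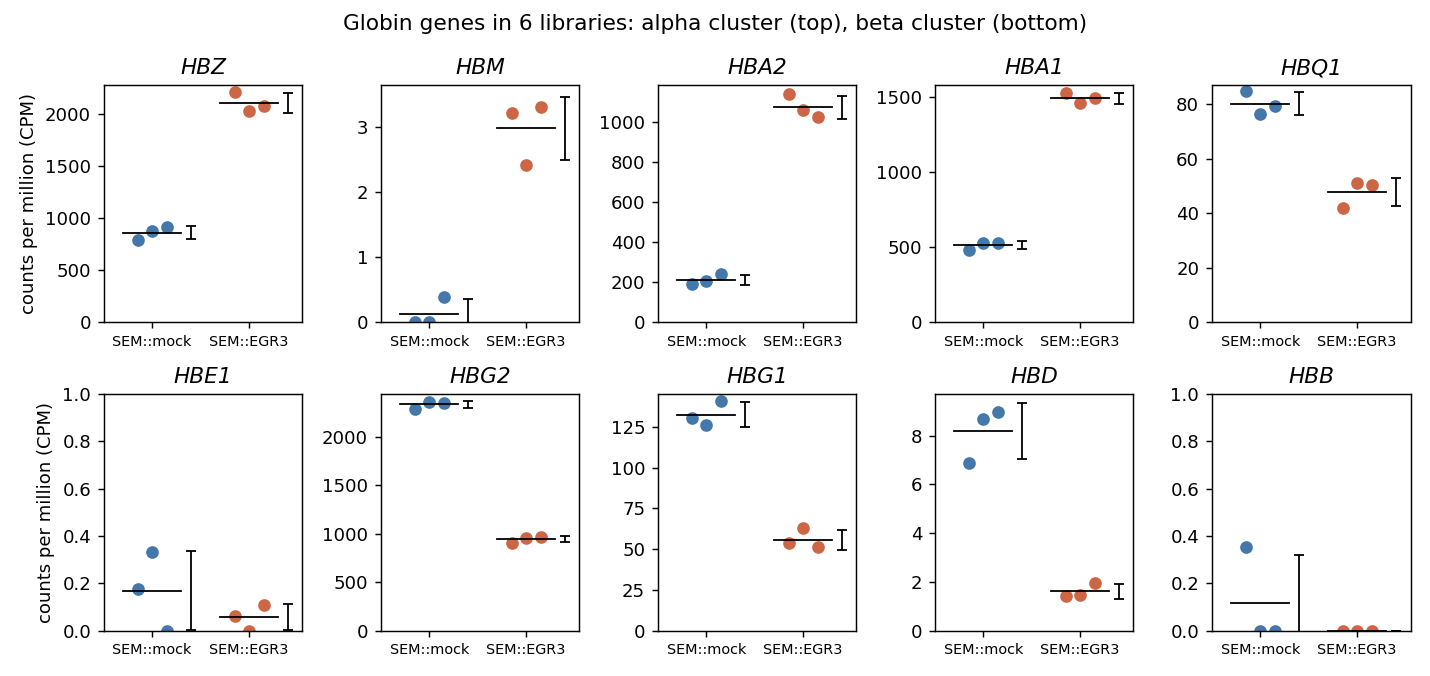
CPM of the 10 globin genes in each library, 1 point per library, with the mean (line) and SD (bar) of the 3 libraries of each line, and axes that start at 0 and differ between genes. The points of SEM::mock and SEM::EGR3 are separate for all genes except HBE1 and HBB, which stay under 1 CPM.

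HBZ, the embryonic alpha-type gene, had 4489, 5284 and 4666 reads in the SEM::mock libraries and 34434, 15149 and 18907 in the SEM::EGR3 libraries. This was 861 ± 63.2 CPM in SEM::mock against 2108 ± 92.9 CPM in SEM::EGR3 (SD, n = 3 each). Each SEM::EGR3 library lay above each SEM::mock library, and the log2 fold change was 1.29 (SE 0.056, adjusted p = 2.57e-16, edgeR). By read count HBZ ranked 140, 121 and 116 of all genes in the SEM::mock libraries and 24, 31 and 28 in the SEM::EGR3 libraries. It thereby was the globin with most reads in SEM::EGR3, whereas HBG2 was in SEM::mock.

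HBA1 and HBA2, which encode the same alpha chain, were both higher in SEM::EGR3, and HBA2 by the larger factor. HBA1 had 2746, 3160 and 2703 reads in SEM::mock and 23771, 10857 and 13533 in SEM::EGR3, or 513 ± 25.6 and 1491 ± 35.3 CPM (SD, n = 3 each). Its log2 fold change was 1.54 (SE 0.052, adjusted p = 1.87e-18, edgeR). HBA2 had 1087, 1227 and 1225 reads in SEM::mock and 17742, 7926 and 9312 in SEM::EGR3, or 212 ± 24.7 and 1076 ± 58.4 CPM (SD, n = 3 each). Its log2 fold change was 2.35 (SE 0.067, adjusted p = 7.24e-20, edgeR). The lines did not overlap for either gene.

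The transcripts of HBA1 and HBA2 are nearly identical, which bears on how reads were divided between them. Of the 50-base windows of the final 300 bases of HBA1, 61.4% occur in HBA2 as well, and 61.8% of those of HBA2 occur in HBA1. How the authors' counting treated such reads is not given in the sources used here, so the sum of both genes is the safer measure. HBA1 and HBA2 together had 3833, 4387 and 3928 reads in SEM::mock and 41513, 18783 and 22845 in SEM::EGR3. The log2 fold change of the sum was 1.83 (SE 0.054, adjusted p = 1.43e-19, edgeR), a ratio of mean CPM of 3.54. The share of HBA2 in this sum was 28.4%, 28.0% and 31.2% in SEM::mock and 42.7%, 42.2% and 40.8% in SEM::EGR3.

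HBM and HBQ1, the minor genes of the alpha cluster, moved in opposite directions. HBM had 0, 0 and 2 reads in SEM::mock, at most the detection floor of 3 reads per library, and 50, 18 and 30 reads in SEM::EGR3. Against that floor the SEM::EGR3 level of HBM was at least 5.53-fold higher, at 2.98 ± 0.488 CPM (SD, n = 3). Its adjusted p was 2.33e-07 (edgeR), which lends no support, since HBM passed the filter only through SEM::EGR3 and had to differ. An annotated non-coding transcript of HBM begins within HBZ, and 68 of the final 300 bases of HBZ lie in its exons. HBQ1 had 483, 458 and 407 reads in SEM::mock and 655, 380 and 458 in SEM::EGR3, or 80.3 ± 4.36 and 47.8 ± 4.99 CPM (SD, n = 3 each). Its log2 fold change was -0.77 (SE 0.077, adjusted p = 3.62e-09, edgeR), and HBQ1 was the member of the alpha cluster that was lower in SEM::EGR3. None of the windows of the coding transcripts of HBQ1 and HBM occurred in another gene, whereas the non-coding transcript of HBM shares sequence with HBZ.

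HBG2, which encodes the gamma chain of fetal hemoglobin with glycine at the position that distinguishes it from HBG1, was the most abundant globin of SEM::mock. It had 13010, 14149 and 12029 reads in SEM::mock and 14158, 7168 and 8751 in SEM::EGR3. At the larger depth of SEM::EGR3 this was 945 ± 30.6 CPM (SD, n = 3) against 2333 ± 38.1 CPM (SD, n = 3) in SEM::mock, without overlap. The log2 fold change was -1.30 (SE 0.049, adjusted p = 1.42e-17, edgeR). HBG2 ranked 31, 29 and 28 of all genes in SEM::mock and 110, 106 and 106 in SEM::EGR3.

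HBG1, the other gamma gene, was lower by a similar factor. It had 741, 755 and 721 reads in SEM::mock and 834, 468 and 466 in SEM::EGR3, or 132 ± 7.63 and 55.9 ± 6.08 CPM (SD, n = 3 each), without overlap. The log2 fold change was -1.25 (SE 0.071, adjusted p = 6.68e-14, edgeR). Of the windows of the final 300 bases of HBG2, 51.8% occur in another member. For HBG1 none of the windows of the final 300 bases does, whereas over the whole transcripts 50.1% of HBG1 windows and 64.8% of HBG2 windows occur in other members. Reads between these genes could therefore be divided where their transcripts are alike. Moreover, 109 of the final 300 bases of HBG1 and 147 of those of HBG2 lie in exons of another annotated gene. Reads there could have been left out of both gamma counts and of their sum. The sum of HBG1 and HBG2 was 13751, 14904 and 12750 reads in SEM::mock and 14992, 7636 and 9217 in SEM::EGR3. Its log2 fold change was -1.30 (SE 0.048, adjusted p = 1.43e-17, edgeR).

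HBD, the gene of the minor adult delta chain, was rare in both lines. It had 39, 52 and 46 reads in SEM::mock and 22, 11 and 18 in SEM::EGR3, or 8.17 ± 1.15 and 1.62 ± 0.31 CPM (SD, n = 3 each). Although each SEM::EGR3 library was deeper, its read number was lower than in any SEM::mock library. The log2 fold change was -2.35 (SE 0.227, adjusted p = 1.74e-09, edgeR), the largest decrease among the members. HBD passed the filter on low counts only through SEM::mock, where it was higher, so this p-value lends little support. Among genes with at least 10 reads in every library, its log2 fold change was -2.30 (adjusted p = 4.87e-09, edgeR).

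HBB, the adult beta chain gene, had 2, 0 and 0 reads in SEM::mock and 0 in each SEM::EGR3 library. HBE1, the embryonic beta-type gene, had 1, 2 and 0 reads in SEM::mock and 1, 0 and 1 in SEM::EGR3. Both genes were at or under the floor of 3 reads per library, which corresponds to between 0.193 and 0.586 CPM, so neither was tested and no fold is given. For HBB, none of the windows of the final 300 bases occurs in another gene. For HBE1, 275 of the final 300 bases lie in exons of another annotated transcript of the same strand, and 90.8% of the windows occur in another gene. That transcript (ENSG00000239920, named AC104389.4 in GENCODE 29 and AC104389.5 in the authors' table) had 2, 0 and 0 reads in SEM::mock and 4, 2 and 2 in SEM::EGR3. Counters can leave out reads that lie in more than 1 gene, and the setting used is not given in the sources used here, so the low count of HBE1 does not show that its transcript was absent.

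**Figure D3:**
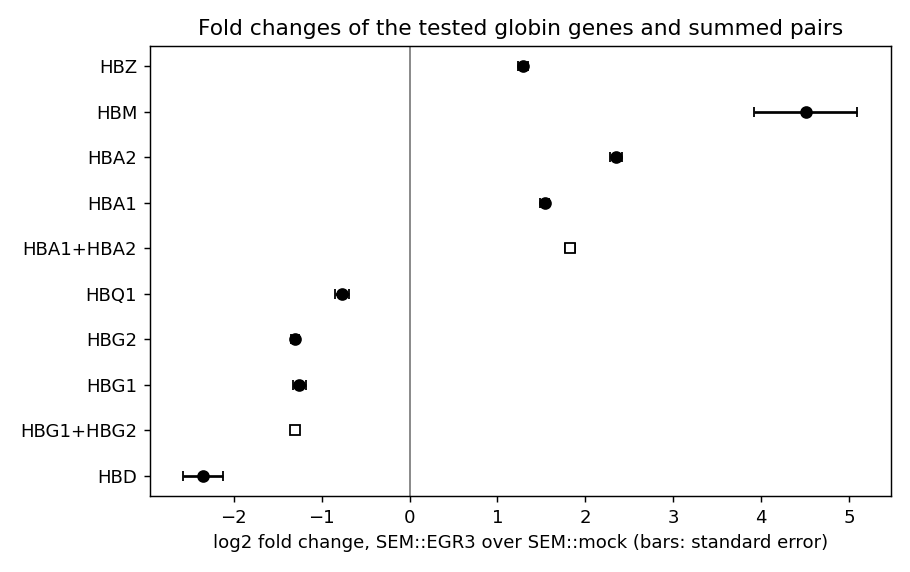
Log2 fold change of SEM::EGR3 over SEM::mock with its standard error for the 8 tested globin genes (filled circles) and the summed near-identical pairs (open squares). HBZ, HBM, HBA2 and HBA1 lie to the right of 0 and HBQ1, HBG2, HBG1 and HBD to the left, and the fitted value of HBM is not a bound since SEM::mock was at its detection limit.

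The makeup of the globin reads changed more than their total. All 10 genes together had 22598, 25087 and 21799 reads in SEM::mock, between 0.391% and 0.412% of listed reads. They had 91667, 41977 and 51476 reads in SEM::EGR3, between 0.576% and 0.607% of listed reads, and a ratio of mean CPM of 1.38. The sum of the alpha cluster was 1666 ± 106 CPM in SEM::mock against 4726 ± 173 CPM in SEM::EGR3 (SD, n = 3 each). The sum of the beta cluster was 2474 ± 40.4 CPM in SEM::mock against 1002 ± 33.1 CPM in SEM::EGR3 (SD, n = 3 each).

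Within the alpha cluster 4 of 5 tested genes were higher, with a median log2 fold change of 1.54, and within the beta cluster all 3 tested genes were lower, with a median of -1.30. Over all 15465 tested genes 36.5% were higher and 32.0% lower, with a median of 0.03. HBM is among the 4 higher genes and passed the filter only through SEM::EGR3. HBD is among the 3 lower genes of the beta cluster and passed the filter only through SEM::mock.

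The alpha cluster held 39.0%, 40.4% and 41.3% of globin reads in SEM::mock and 83.6%, 81.8% and 82.1% in SEM::EGR3. The lines were apart by 42.3 percentage points, with SDs of 1.18 and 0.991 points between replicates. Counting error was smaller than this difference, as the widest 95% Wilson interval of these shares spanned 1.31 points. By stage, the fetal genes gave 59.6% ± 1.19 (SD, n = 3) of globin reads in SEM::mock and 17.5% ± 0.988 (SD, n = 3) in SEM::EGR3. HBZ with HBE1, which may be undercounted, gave 20.8% ± 0.808 and 36.8% ± 0.74 (SD, n = 3 each). HBA1 with HBA2 gave 17.5% ± 0.529 and 44.8% ± 0.456 (SD, n = 3 each). The adult beta-type genes gave 0.2% ± 0.0161 and 0.0284% ± 0.0058 (SD, n = 3 each). The libraries of the lines did not overlap in any of these 5 shares.

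Within the clusters the balance of stages, as counted, moved less than that between the clusters. HBZ gave 51.0%, 52.2% and 51.8% of alpha cluster reads in SEM::mock and 44.9%, 44.1% and 44.8% in SEM::EGR3, since HBA1 and HBA2 together differed by a larger factor. The fetal genes gave at least 99.6% of beta cluster reads in each library of both lines, with means of 99.66% ± 0.0322 in SEM::mock and 99.83% ± 0.0334 in SEM::EGR3 (SD, n = 3 each). Since reads of HBE1 may have been left out by the counting, the embryonic part of the beta cluster is not known from these shares. HBG2 gave 94.6%, 94.9% and 94.3% of the gamma reads in SEM::mock and 94.4%, 93.9% and 94.9% in SEM::EGR3. Here the lines overlapped, and their difference of -0.213 points was smaller than the SDs of 0.295 and 0.537 points. HBD gave 95.1%, 100% and 100% of the reads of HBB and HBD in SEM::mock and 100% in each SEM::EGR3 library, from as few as 11 reads. Of the 6 shares tested by a two-sided exact permutation over the 6 libraries, 4 reached p = 0.1 (0.15 adjusted over the 6), the smallest value that 20 assignments allow. The HBG2 share had p = 0.7 (0.84 adjusted, exact permutation) and the HBD share p = 1 in the same test.

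**Figure D4:**
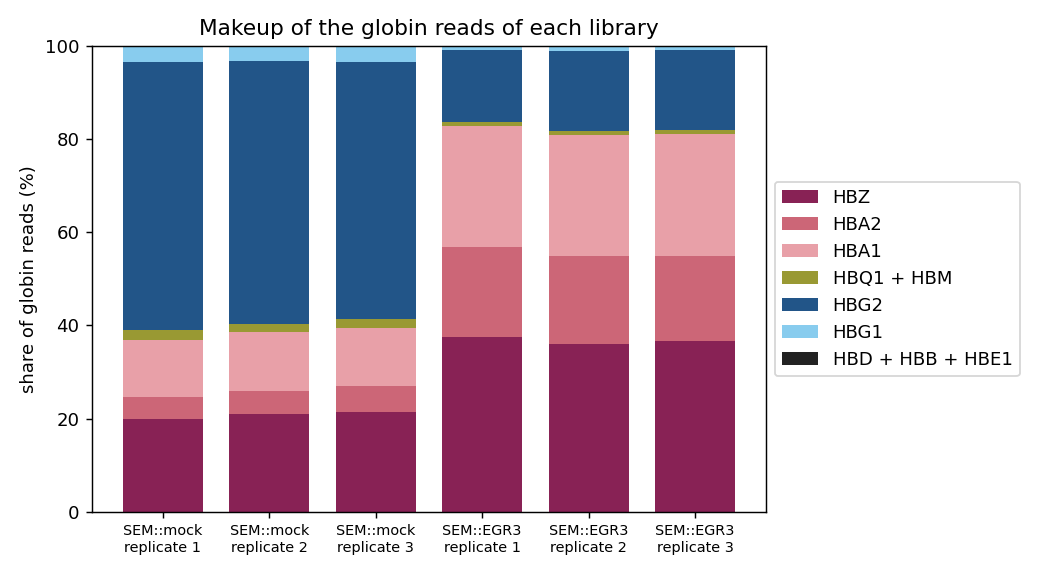
Share of each globin in the globin reads of each library (percent, stacked to 100). HBG2 takes the largest part of each SEM::mock library, and the alpha cluster genes HBZ, HBA2 and HBA1 take over 80% of each SEM::EGR3 library.

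The genes around the clusters moved little on the alpha side. Of 8 tested neighbours of the alpha cluster, 1 was higher and 5 were lower, against 36.5% and 32.0% of all tested genes, with a median log2 fold change of -0.19. The largest log2 fold changes were -0.48 for RHBDF1, a rare transcript with at most 120 reads in a library, 0.46 for AXIN1, a scaffold protein of Wnt signaling, and -0.42 for POLR3K, a subunit of RNA polymerase III. NPRL3, whose introns hold the main enhancers of the alpha globin genes, had a log2 fold change of -0.28. Within the alpha cluster the pseudogene HBZP1 had 9, 10 and 7 reads in SEM::mock and 70, 22 and 28 in SEM::EGR3, a log2 fold change of 1.25 (adjusted p = 6.89e-04, edgeR), and shares sequence with HBZ. HBZP1 passed the filter only through SEM::EGR3, where it was higher, so this p-value lends little support.

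On the beta side 3 of 4 tested neighbours were lower, against 32.0% of all tested genes, with a median of -0.89. TRIM6, an E3 ubiquitin ligase gene, had a log2 fold change of -2.12, OR51B5, an olfactory receptor gene whose span overlaps those of HBG2 and HBE1, of -0.99, and TRIM22 of -0.79. The non-coding BGLT3 between HBG1 and HBBP1, named after its value was seen, had 11, 23 and 16 reads in SEM::mock and 17, 6 and 7 in SEM::EGR3, a log2 fold change of -1.66. BGLT3 passed the filter only through SEM::mock, where it was higher. The pseudogene HBBP1, also named after its value was seen, had a log2 fold change of 0.08 and did not pass the test (adjusted p = 0.802, edgeR).

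**Figure D5:**
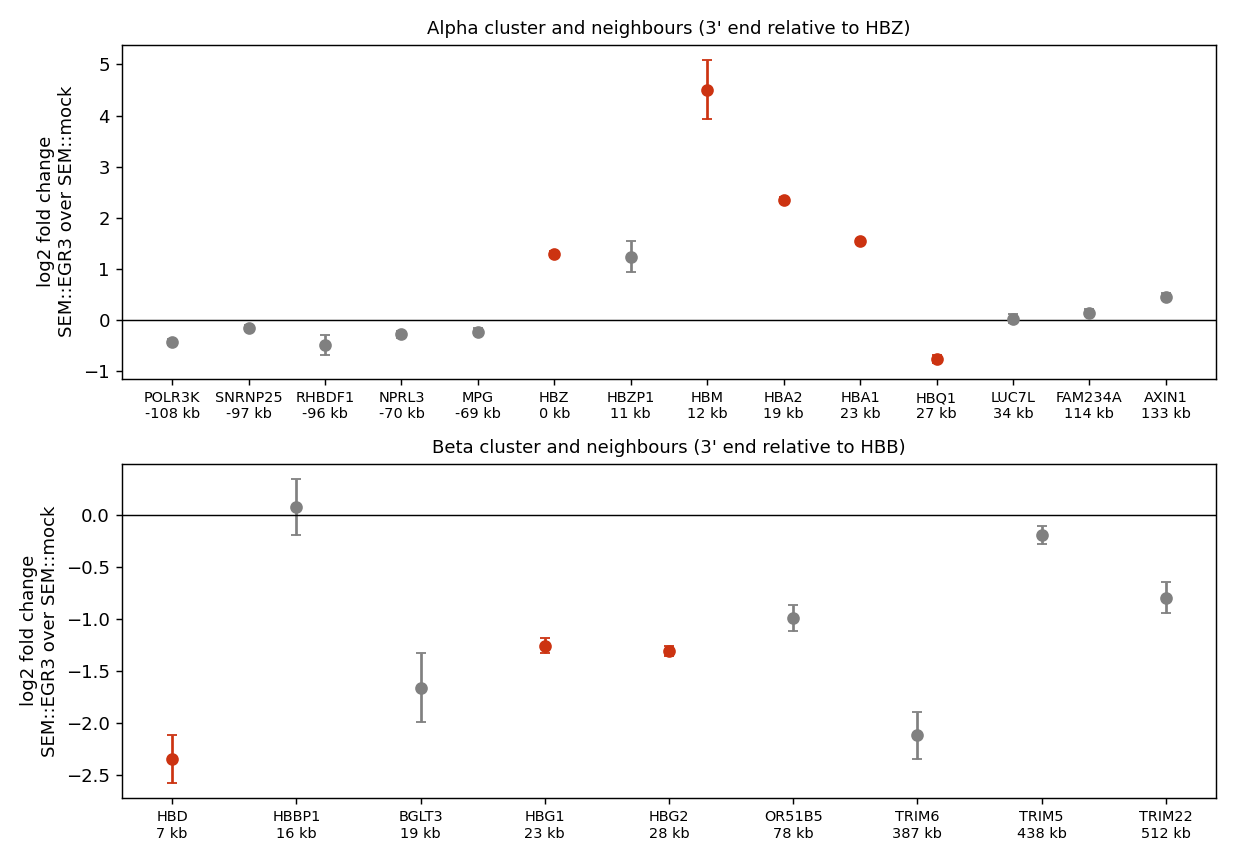
Log2 fold change of SEM::EGR3 over SEM::mock with its standard error for tested genes of both clusters and their neighbours, in the order of their 3′ ends (distance from HBZ or HBB under each name). Globin members (red) from HBZ to HBA1 lie above 0 with HBZP1 between them, HBQ1 lies below 0, and the tested members of the beta cluster lie below 0.

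Of 31 listed regulators of globin genes, all tested, 12 were higher and 15 lower, with a median log2 fold change of -0.14. The share of higher genes was near the 36.5% of all tested genes, and the share of lower genes was above the corresponding 32.0%. With a log2 fold change of at least 1 in addition, 3 were higher and 8 lower, against 16.7% and 8.50% of tested genes. The 3 higher genes, KLF2, BCL11A and SOX6, passed the filter only through SEM::EGR3, which favored their calls as higher. They are also among the 12 higher genes. No test of the list as a set was run. BCL11A, the repressor of the gamma genes in adult erythroid cells, had 0, 1 and 2 reads in SEM::mock and 1048, 392 and 502 in SEM::EGR3. Against the floor it was at least 109-fold higher, and BCL11A is also expressed in B cell precursors, whose markers were higher in the same libraries. Its partner SOX6, which cooperates with BCL11A at the gamma genes, had a log2 fold change of 2.84, from 2.1 ± 1.39 to 15.5 ± 1.02 CPM (SD, n = 3 each). KLF2, a Krüppel-like factor linked to embryonic globin expression, had a log2 fold change of 2.44. KLF1, the erythroid Krüppel-like factor that activates HBB, was lower with a log2 fold change of -2.18, at 160 ± 5.5 CPM in SEM::mock and 35.7 ± 1.51 CPM in SEM::EGR3 (SD, n = 3 each). GATA1, the master regulator of erythroid genes, had 335 ± 9.65 and 285 ± 8.68 CPM (SD, n = 3 each) and a log2 fold change of -0.23 (adjusted p = 3.42e-04, edgeR). The part of these regulators in the globin values was not tested.

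Erythroid markers were mostly lower while the alpha-type globins were higher. Of 17 listed markers 14 were tested, of which 2 were higher and 12 lower, against 36.5% and 32.0% of all tested genes, with a median log2 fold change of -0.66. GYPB (glycophorin B) had a log2 fold change of -1.75 and ALAS2, the first enzyme of erythroid heme synthesis, of -0.87. The 2 higher markers, named after their values were seen, were SLC4A1 (band 3), at 3, 1 and 2 reads in SEM::mock and 35, 16 and 26 in SEM::EGR3, and ANK1 (ankyrin), with a log2 fold change of 0.95. SLC4A1 was at the detection limit in SEM::mock and passed the filter only through SEM::EGR3. AHSP, the chaperone of free alpha globin, had 0 reads in SEM::mock and 2, 0 and 0 in SEM::EGR3, so it was at the detection limit in both lines.

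Of the other globins outside the clusters, MB (myoglobin, the oxygen store of muscle) had 0 reads in each SEM::mock library and 543, 255 and 295 in SEM::EGR3. This was 33.9 ± 1.24 CPM (SD, n = 3) in SEM::EGR3 and at least 62.9-fold above the floor of SEM::mock. CYGB and ADGB were not tested.

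HBG2 had the highest mean level of the members over the 6 libraries. Of 9523 other tested genes with at least 100 reads on average, CAVIN1 (Pearson r = 0.99997), SPRY4 (r = 0.99985) and CPED1 (r = 0.99984) had the most similar log2(CPM + 1) values over the 6 libraries. These points share library depth and fall into the 2 lines, and 676 of the candidates had r above 0.99, so such values describe a common difference between the lines.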

How the data were processed

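RNA of 3 replicates each of SEM::mock and SEM::EGR3 was sequenced by MACE-Seq. The counts deposited by the authors are whole numbers without normalization. The columns that the authors call TPM hold CPM values, and only library totals were taken from them. Size-factor normalized values and the authors' own fold changes and p-values are also in the table and were not used. Per the labels, bcl2fastq, Bowtie2, HTSeq and GRCh38 were used, without versions, and strand and multi-mapping settings are not given in the sources used here. The column headings spell the transgene ERG3. No column of per-sample values was left without a library (0 columns).

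The lines were compared by edgeR 4.0.16 under R 4.3.3 (filterByExpr, TMM, glmQLFit and glmQLFTest over all 6 libraries), and p-values were adjusted by Benjamini-Hochberg over 15465 genes with a threshold of 0.05. The standard error of a log2 fold change was derived from the F statistic. The procedure was tested on simulated data. Alternatives were DESeq2 1.42.0, other scalings and filters, a minimum log2 fold change, a replicate block, leaving out each library, and summing near-identical pairs. A line with at most 3 reads in every library was at its detection limit, and folds against it are lower bounds. Each bound is the mean CPM of the other line over the mean floor of the line at its limit. Shares were compared by exact permutation, which cannot go below p = 0.1 with 3 against 3. Intervals are 95% Wilson intervals and, as the floors, cover counting error only. Positions, exons and the 50-base windows of the final 300 transcript bases were taken from GENCODE 29.

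Named were all 10 members. From each other list at most 4 genes past the threshold with the largest fold change and a mean of at least 30 reads in the higher line were named, besides ALAS2, KLF1, GATA1, AHSP and EGR3, and further genes where stated. Some genes that this rule names are not reported here. Likeness was measured for the most abundant member among genes with a mean of at least 100 reads. The lists cover B lineage, erythroid, megakaryocyte, myeloid and T cell markers, globin regulators, other globins, pseudogenes and neighbours. Members and lists were chosen with earlier results of these data known.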

Additional observations from a re-analysis of the deposited data

How the results depend on the processing

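Of 123 alternative log2 fold changes of members, 122 kept their direction and their side of the threshold. All 8 tested members passed in the main comparison, with DESeq2, with a replicate block and without each library in turn (8 to 8), and 7 passed with a minimum log2 fold change of 1, which HBQ1 missed, or with at least 10 reads in every library, which removed HBM. With the pairs summed, all 6 features passed. The difference in the HBG2 share of gamma reads (-0.213 points) turned to 0.0604 points without SEM::EGR3 replicate 2 and had its lowest value of -0.476 points without another library. The difference in the HBD share of HBB and HBD reads (1.63 points) was 0 without SEM::mock replicate 1, the library that holds the reads of HBB. The replicate numbers did not pair the libraries, as same-numbered libraries correlated at -0.199, -0.138 and -0.069 in their deviations over 11503 genes. With a replicate block, log2 fold changes ranged from -2.31 for HBD to 4.47 for HBM, and no call was lost. With 10 reads in place of 3 as the floor, HBM was at least 1.66-fold higher. The fitted HBM value rose from 4.51 to 7.74 without SEM::mock replicate 3, the library that holds its only reads in that line. The median of all genes moved from 0.03 to 0.106 without TMM factors, 0.12 with the deposited totals and 0.221 without a filter, and all members kept their direction. Depth limits HBM, HBB and HBE1, and HBE1 is limited also by its overlap with exons of another transcript. P-values set the difference between the lines against the spread between replicates of 1 pair of lines.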

Other observations

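The T cell list summed to between 59.3 and 65.0 CPM in SEM::mock and to between 58.6 and 64.4 CPM in SEM::EGR3. CD3D, a chain of the T cell receptor complex, had 319, 342 and 310 reads in SEM::mock and 86, 54 and 54 in SEM::EGR3, whereas LCK, a kinase of lymphocytes, had 0, 0 and 2 reads in SEM::mock and 785, 402 and 469 in SEM::EGR3. Of the 4 tested genes of this list, 2 were higher and 2 lower, against 36.5% and 32.0% of all tested genes. The 2 higher genes, CD2 and LCK, were at the detection limit in SEM::mock and passed the filter only through SEM::EGR3. CD3E, among the 2 lower genes, passed it only through SEM::mock, where it was higher.

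The myeloid list summed to between 280 and 289 CPM in SEM::mock and to between 94.9 and 96.7 CPM in SEM::EGR3, and most of its reads came from LYZ (lysozyme) and CD33, with log2 fold changes of -1.85 and -1.38. The megakaryocyte list was low in both lines, at between 16.2 and 18.7 CPM in SEM::mock and between 16.2 and 17.8 CPM in SEM::EGR3. Of its 4 tested genes 2 were higher and 2 lower, against 36.5% and 32.0% of all tested genes. VWF, among the 2 higher genes, was at the detection limit in SEM::mock and passed the filter only through SEM::EGR3. The 2 lower genes, GP1BA and GP6, passed it only through SEM::mock, where they were higher.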
